A study of Rattus norvegicus with 6 samples.

Results

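The tetraspanins and the ESCRT machinery, the membrane organisers and membrane-cutting proteins from which exosomes are built, were followed in rat cells that had received exosomes. Members were chosen by gene symbol alone, as protein-coding models of the deposited table that carry a Tspan or Chmp number, the VPS4, VPS28 or VPS37 names, or the symbols Cd9, Cd37, Cd53, Cd63, Cd81, Cd82, Cd151, Tsg101, Hgs, Stam, Stam2 and Pdcd6ip. This gave 48 genes of 33350 gene models (22293 of them protein-coding): 27 tetraspanins, 3 subunits of ESCRT-0, 6 of ESCRT-I, 9 of ESCRT-III, both VPS4 genes, and Pdcd6ip, which encodes ALIX. The cells of all 6 libraries are labelled PC12, a rat adrenal pheochromocytoma line, and were grown with exosomes of endothelial cells. In the 3 EC libraries the donor endothelial cells were controls, and in the 3 EN libraries they expressed netrin-1 (NTN1), an axon guidance protein, at a high level. No library of cells without exosomes was analysed here, so EN is read only against EC. The labels give no dose or time, and whether each replicate was its own culture is not said. The p-values therefore cover only the spread among these samples, and that spread may be technical.

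Tetraspanins are small proteins that cross the membrane several times and gather integrins, proteases and immunoglobulin-type proteins around them into microdomains. CD9, CD63 and CD81 are abundant on exosomes and serve as their usual markers. The ESCRT complexes act in sequence on the endosome: ESCRT-0 gathers ubiquitinated cargo, ESCRT-I and ESCRT-II bend the membrane, ESCRT-III filaments close the neck of the bud, and the ATPase VPS4 takes the filaments apart. ALIX links ESCRT-I to ESCRT-III and, through the adaptor syntenin, to syndecans. All of the values below are transcript levels of the recipient cells, and neither proteins nor vesicles were measured.

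The reads worked back from the deposited values came to 15296193 to 16165804 in the EC libraries and 16654025 to 19626012 in the EN libraries, so that each EN library was the deeper. Of the 12198 genes that averaged 1 FPKM or more (fragments per kilobase of gene, scaled to the depth of the library) across the 6 libraries, 1754, or 14.4%, passed the test between the groups, limma on log2(FPKM + 1) with a Benjamini-Hochberg adjusted p under 0.05. The share was 7.24% for genes higher in EN and 7.14% for genes lower in EN. The median log2 change over all genes tested was -0.0028. The markers of the labelled cell type were low in both groups: of 12 chromaffin markers, 3 reached a mean of 1 FPKM (Scg2, Slc18a2 and Th, at 63.9, 4.39 and 1.47 FPKM), Chga averaged 0.037 FPKM, and Hand2 had no read. Genes of the Schwann cell lineage were high in every library: S100b was at 87.3 to 132.5 FPKM, Ngfr at 96.2 to 116.6 and Erbb3 at 46.2 to 48.9. The markers thus go against the PC12 label, and the cells are called here by their label only. In bulk RNA, fewer cells of a type and less RNA per cell cannot be told apart.

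Most of the machinery was present in these cells, and the levels of its parts were uneven. Of the 48 genes, 34 reached the minimum and were tested, 15 of 27 tetraspanins and 19 of 21 ESCRT, VPS4 and ALIX genes. Cd63 stood far above the rest, at a mean of 896.0 FPKM over the 6 libraries, followed by Cd9 at 334.8, Tspan7 at 222.8, Cd82 at 180.4, Cd81 at 119.8 and Tspan3 at 118.0 FPKM. These 6 genes made up 88.7% to 89.7% of the summed tetraspanin FPKM of a library. The neighbours Cd81 and Tspan3 exchanged places with the group: Tspan3 was above Cd81 in all 3 EC libraries and below it in all 3 EN libraries. The ESCRT genes lay within a narrower band, from 19.9 FPKM (Stam2) to 95.5 FPKM (Chmp3), apart from Vps37d at 1.16 FPKM among those tested.

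**Figure D1:**
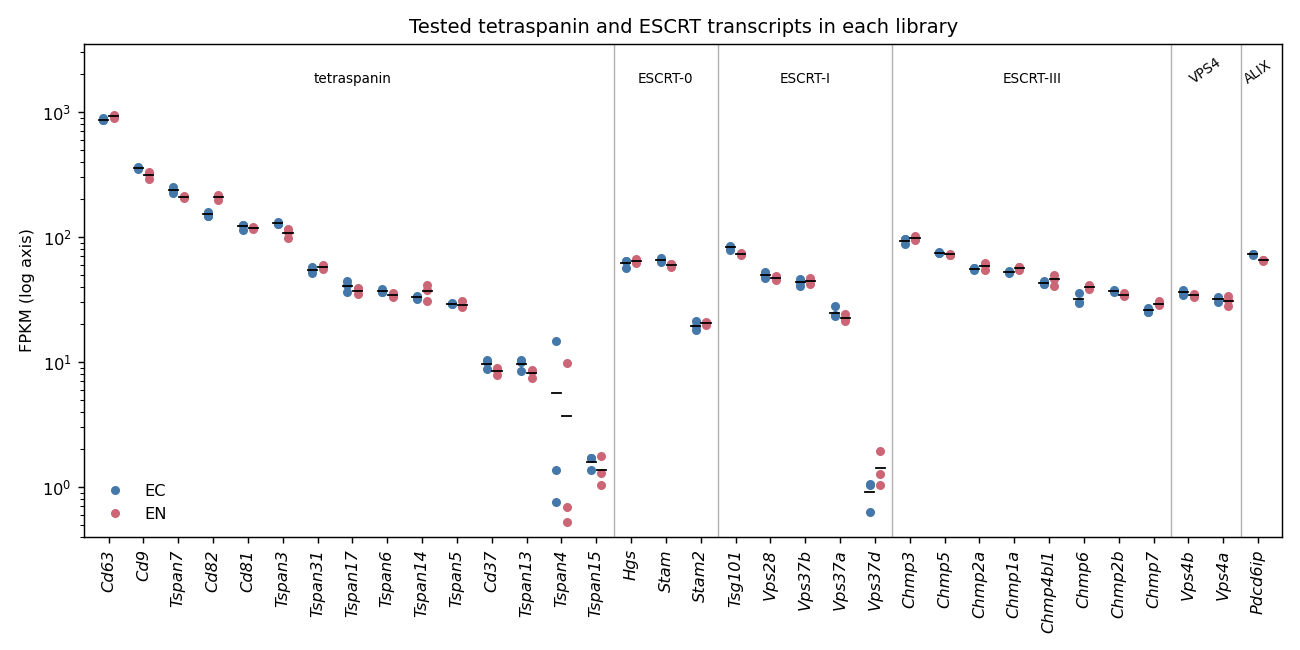
FPKM on a log axis for the 34 tested genes in each of the 6 libraries, by role (blue points EC, red points EN, 3 libraries each, black lines group means). Cd63 lies near 900 FPKM, most ESCRT genes between 20 and 100 FPKM, and Tspan4 spreads from 0.527 to 14.8 FPKM over the 6 libraries.

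Between the groups, 2 of the 34 tested genes were higher in EN (Cd82 and Chmp6), 4 were lower (Tspan3, Tspan7, Tsg101 and Pdcd6ip) and 28 did not pass. The 6 are 17.6% of those tested, near the 14.4% of all genes. The EN and EC libraries did not overlap in 14 of the 34 genes (41.2%), against 37.9% of all genes tested. The median log2 change of the 34 was -0.045, and the median size of change was 0.11 against 0.13 over all genes. Both shares lie near those of all genes, and what follows describes single genes.

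**Figure D2:**
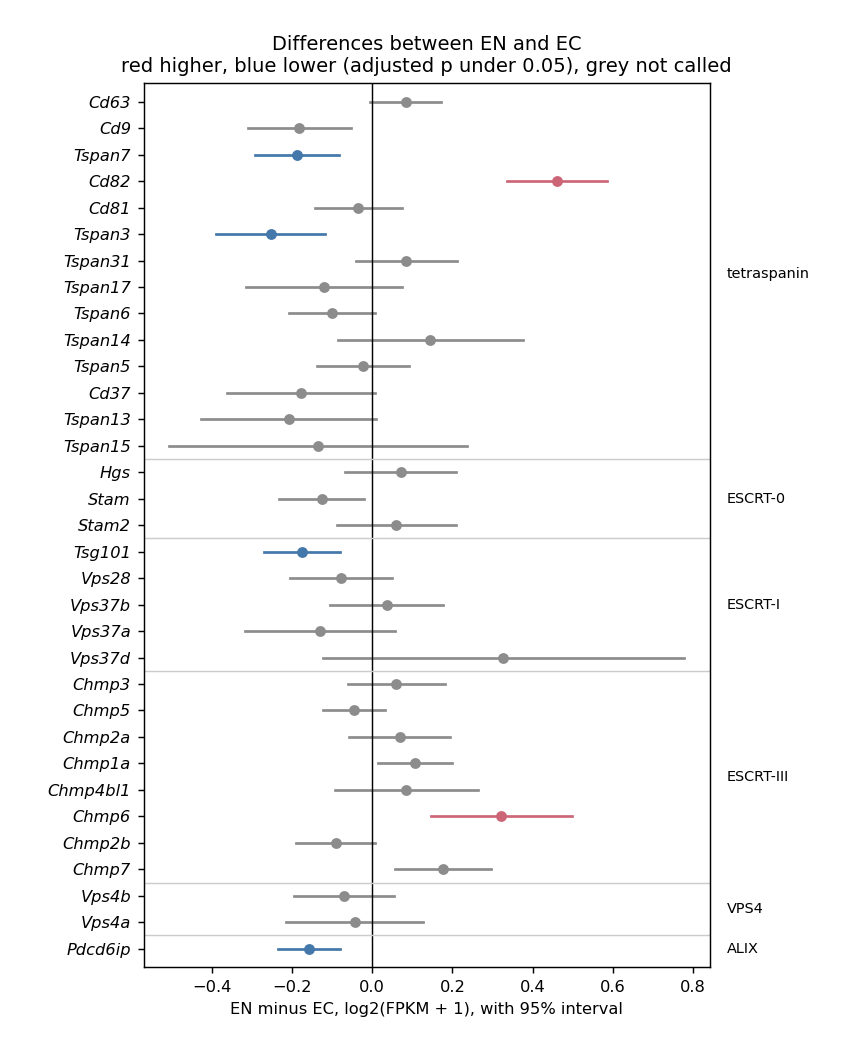
Difference between EN and EC on the log2(FPKM + 1) scale with its 95% interval from limma, for the tested genes other than Tspan4, whose interval runs from -2.83 to 2.01. Red marks the 2 genes called higher (Cd82 and Chmp6), blue the 4 called lower, and grey those that did not pass.

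Cd82 had the largest change among the genes that passed. It encodes a tetraspanin also known as KAI1, a suppressor of metastasis that restrains integrin and growth factor receptor signalling. Cd82 (chromosome 3, 82324354 to 82368357 on Rnor_6.0) was at 159.6, 147.4 and 147.6 FPKM in EC replicates 1 to 3 and at 218.3, 212.4 and 196.8 FPKM in EN replicates 1 to 3. Every EN library lay above every EC library. The mean rose from 151.5 ± 6.98 to 209.2 ± 11.1 FPKM (SD, n = 3 each), 1.38-fold or 0.46 on the log2 scale (SE 0.053; adjusted p = 0.0055 in limma). The call held in all 17 alternative settings, with adjusted p between 5.02e-04 and 0.034. In EC, Cd82 was the fourth tetraspanin by level in each library. In EN replicates 1 and 2 it was above Tspan7 and took the third place, with a ratio of Cd82 to Tspan7 FPKM of 1.07 and 1.02, against 0.934 in EN replicate 3 and 0.591 to 0.708 in EC.

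The 2 tetraspanins that fell are both abundant. Tspan7, a neuronal tetraspanin whose human counterpart is mutated in X-linked intellectual disability (chromosome X, 13261558 to 13279099), was at 225.3, 249.7 and 237.4 FPKM in EC and 204.2, 209.3 and 210.8 FPKM in EN. Its mean fell from 237.5 ± 12.2 to 208.1 ± 3.45 FPKM (SD, n = 3 each), which is -0.19 as log2 (SE 0.045; adjusted p = 0.036 in limma), the passing value nearest to the threshold. A second model described as tetraspanin-7-like (LOC102551255) had no read in any library. Tspan3 (chromosome 8, 60806849 to 60830448) was at 126.5, 127.1 and 131.3 FPKM in EC and 109.2, 114.9 and 98.8 FPKM in EN. The EN libraries lay below all EC libraries in both genes. Tspan3 went from 128.3 ± 2.65 to 107.7 ± 8.17 FPKM, which is -0.25 as log2 (SE 0.058; limma adjusted p = 0.032).

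The exosome marker tetraspanins did not pass. Cd9 was at 362.8, 355.3 and 349.0 FPKM in EC and 332.4, 319.7 and 289.8 FPKM in EN. Its libraries did not overlap and lay lower in EN, with a log2 change of -0.18, a 95% interval of -0.31 to -0.05 and an adjusted p of 0.068. Cd63, which resides in late endosomes and lysosomes, was at 887.2, 866.5 and 856.0 FPKM in EC and 896.2, 922.5 and 947.8 FPKM in EN. Its libraries lay higher in EN without overlap, with a log2 change of 0.08 (interval -0.0048 to 0.17, adjusted p = 0.17), but the sign turned to -0.057 with quantile normalization. With limma voom on the reads Cd63 passed, with an adjusted p of 0.031. Cd81 was at 124.8, 125.0 and 114.0 FPKM in EC and 118.2, 120.6 and 116.1 FPKM in EN. The groups overlapped, with a log2 change of -0.03 and an interval of -0.14 to 0.07.

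The summed tetraspanin level was alike in range between the groups, 2046 to 2126 FPKM in EC and 2074 to 2121 FPKM in EN, while its composition differed. Cd63 made up 41.5% to 41.8% of it in EC and 42.7% to 45.7% in EN, and Cd82 7.06% to 7.51% and 9.49% to 10.4%. Cd9 went the other way, from 17% to 17.1% in EC to 14.0% to 15.8% in EN, as did Tspan3, from 5.95% to 6.42% to 4.77% to 5.42%. The share of Tspan7 was also lower, at 10.6% to 11.9% in EC and 9.73% to 10.2% in EN. None of these shares overlapped between the groups. That of Cd81 did overlap, at 5.58% to 5.98% in EC and 5.60% to 5.69% in EN. All of the shares follow from the levels above and were not tested again.

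Of the remaining tested tetraspanins, none passed. Tspan5, Tspan14, Tspan15 and Tspan17 belong to the TspanC8 group, which escorts the protease ADAM10 to the cell surface. Their log2 changes were -0.02, 0.15, -0.13 and -0.12. The summed level of the 6 TspanC8 genes was 101.5 to 107.8 FPKM in EC and 101.4 to 109.8 in EN. Tspan6 and Tspan13 had log2 changes of -0.10 and -0.21 and Tspan31 of 0.09. A model on the other strand, Cdk4, overlaps Tspan31, and strand-aware counting is not stated for these data.

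Among leukocyte tetraspanins, Cd37 and Cd53 parted. Cd37 was at 10.3, 9.91 and 8.81 FPKM in EC and 8.59, 8.93 and 7.79 FPKM in EN, with groups that overlapped (log2 change -0.18, adjusted p = 0.17). Cd53 had no read at all. A count of 0 over the 6 libraries allows a level of up to 0.0176 FPKM (3 reads, counting error only). Of 8 leukocyte markers, Cd68 alone reached the minimum, at 4.19 FPKM. Ptprc, which encodes the pan-leukocyte antigen CD45, averaged 0.0043 FPKM. The summed level of the 8 was 4.09 to 5.42 FPKM in EC and 4.32 to 5.19 in EN.

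**Figure D3:**
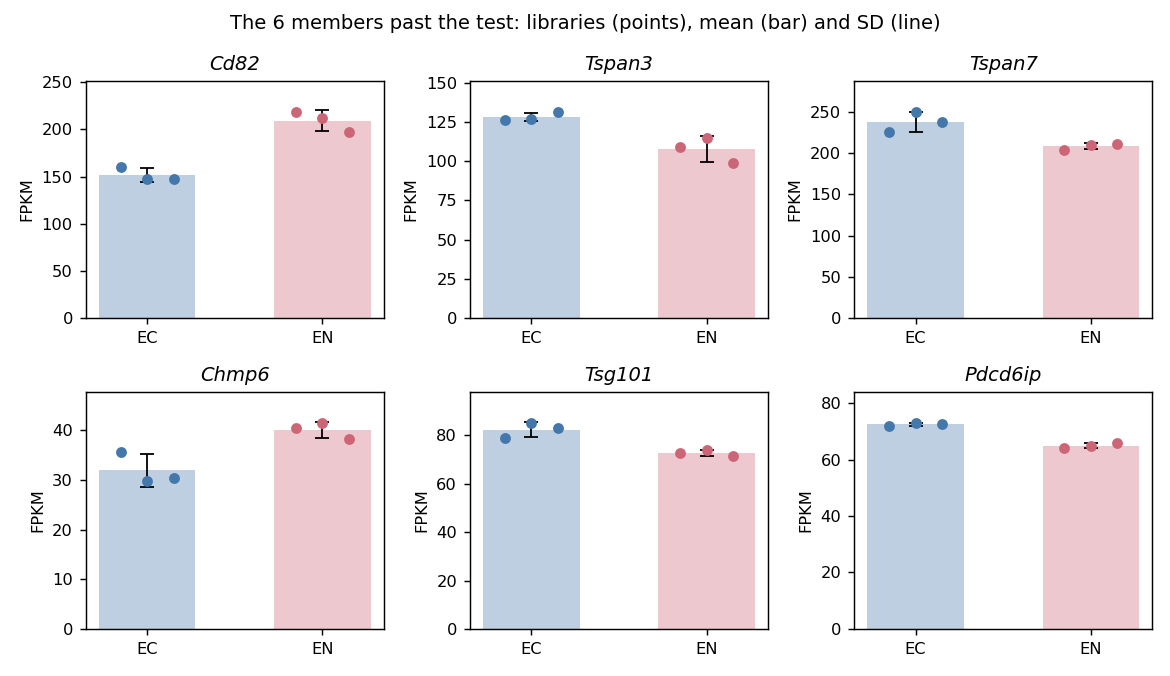
FPKM of the 6 genes past the test, with each library as a point, the group mean as a bar from 0 and the SD as a line (n = 3 each). Cd82 and Chmp6 are higher in EN, the other 4 lower, and in none of them do the groups overlap.

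In the ESCRT arm, the first complex did not pass. Hgs and Stam encode its core, HRS and STAM1. Hgs was at 64.3, 63.8 and 56.4 FPKM in EC and 65.3, 66.3 and 62.2 in EN, with overlapping groups (log2 change 0.07, 95% interval -0.07 to 0.21). Stam was at 62.6, 65.9 and 68.2 FPKM in EC and 58.0, 61.3 and 60.7 in EN. Its EN libraries lay below those of EC, with a log2 change of -0.13 (interval -0.23 to -0.02, adjusted p = 0.10). Stam2 had a log2 change of 0.06. A model on the other strand, Arl16, overlaps Hgs.

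In ESCRT-I, Tsg101 fell. It encodes the subunit that binds ubiquitin and is a common exosome marker (chromosome 1, 102941231 to 102970950). Tsg101 was at 78.9, 85.3 and 82.97 FPKM in EC and 72.8, 74.0 and 71.6 FPKM in EN, with no overlap. The mean went from 82.4 ± 3.21 to 72.8 ± 1.22 FPKM (SD, n = 3 each), which is -0.18 as log2 (SE 0.040; adjusted p = 0.033 in limma). Its partner Vps28 was at 52.7, 49.3 and 46.9 FPKM in EC and 47.5, 44.9 and 48.4 in EN. Vps28 did not pass (log2 change -0.08, interval -0.21 to 0.05). The VPS37 subunits are alternatives to each other in the complex, and Vps37b, Vps37a and Vps37d did not pass, with log2 changes of 0.04, -0.13 and 0.33.

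Pdcd6ip, the ALIX gene, also fell (chromosome 8, 121916185 to 121973125). It was at 71.9, 73.05 and 72.6 FPKM in EC and 64.1, 64.9 and 65.8 FPKM in EN. The spread within each group was small beside the gap between them. The mean went from 72.5 ± 0.553 to 64.9 ± 0.858 FPKM (SD, n = 3 each), which is -0.16 as log2 (SE 0.032; limma adjusted p = 0.025).

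ESCRT-III held the second gene that rose. Chmp6, whose protein joins ESCRT-II to the ESCRT-III filament (chromosome 10, 109073678 to 109079348), was at 35.6, 29.7 and 30.4 FPKM in EC and 40.4, 41.5 and 38.2 FPKM in EN. EC replicate 1 lay nearest to the EN libraries but below them. The mean went from 31.9 ± 3.25 to 40.1 ± 1.70 FPKM (SD, n = 3 each), 1.26-fold or 0.32 as log2 (SE 0.074; limma adjusted p = 0.033). Chmp7, which acts in sealing the nuclear envelope, was just outside the threshold. It was at 27.1, 25.0 and 25.3 FPKM in EC and 28.4, 28.8 and 30.7 in EN, a log2 change of 0.18 with an adjusted p of 0.060. R3hcc1, on the same strand, overlaps Chmp7, so reads could be assigned to either.

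The other ESCRT-III genes did not pass. Chmp3 was at 95.9, 96.4 and 88.03 FPKM in EC and 93.7, 96.8 and 101.9 in EN (log2 change 0.06, 95% interval -0.06 to 0.18). Chmp5 had the smallest ratio of highest to lowest library among the 34 genes, 1.05, from 71.5 to 75.3 FPKM over the 6 libraries, with a log2 change of -0.05 (interval -0.12 to 0.03). Every EN library of Chmp5 lay below every EC library. Chmp1a lay higher in EN without overlap, with a log2 change of 0.11 (interval 0.01 to 0.20, adjusted p = 0.11), and Chmp2b lay lower without overlap, at -0.09 (interval -0.19 to 0.01). Chmp2a and Chmp4bl1 overlapped between the groups, with log2 changes of 0.07 and 0.08. Chmp4bl1 is described in the table as 4B-like. No protein-coding model named Chmp4b was found by the symbol rule, so Chmp4b itself was not analysed here. Whether reads of Chmp4b were assigned to Chmp4bl1 was not tested. The VPS4 genes, whose product recycles the filament, did not pass: Vps4a was at 33.1, 32.6 and 30.0 FPKM in EC and 33.6, 28.1 and 31.3 in EN, and Vps4b at 34.0, 36.1 and 37.95 in EC and 32.9, 34.6 and 35.2 in EN. Both overlapped between the groups, with intervals of -0.22 to 0.13 for Vps4a and -0.19 to 0.05 for Vps4b.

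Apart from Cd82, no call held in every fit with 1 library left out. When EC replicate 2 or 3, or EN replicate 1 or 2, was left out, none of the other 5 calls was kept, with adjusted p between 0.053 and 0.12. In the same fits the calls over all genes also dropped, to 143 to 182 higher and 180 to 269 lower, from 883 and 871. Without EC replicate 1, Tspan3 was lost (adjusted p = 0.057), and without EN replicate 3, Tsg101 (adjusted p = 0.054). Their directions were the same in every one of these fits.

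The promoters of the 4 genes that fell are shown because these members moved in the same direction. Each sequence is the 150 bases before the start, 5′ to 3′, from RefSeq's promoter table on GRCr8, a later build than that of the expression table. Capitals mark motifs found on either strand. The E-box was searched as CACGTG. The GC box was searched as GGGCGG. The CCAAT box was searched by those letters, and the TATA box as TATAAA. The promoters are:
Tsg101 (chr1:106578776-106578925, minus strand): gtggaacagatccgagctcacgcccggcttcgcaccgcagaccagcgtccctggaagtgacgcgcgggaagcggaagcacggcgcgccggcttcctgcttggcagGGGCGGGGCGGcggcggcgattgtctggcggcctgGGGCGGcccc
Pdcd6ip (chr8:122524994-122525143, minus strand): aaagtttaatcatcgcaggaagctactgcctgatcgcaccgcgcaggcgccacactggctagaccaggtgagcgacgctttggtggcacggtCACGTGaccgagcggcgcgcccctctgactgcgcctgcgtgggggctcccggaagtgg
Tspan3 (chr8:65465845-65465994, minus strand): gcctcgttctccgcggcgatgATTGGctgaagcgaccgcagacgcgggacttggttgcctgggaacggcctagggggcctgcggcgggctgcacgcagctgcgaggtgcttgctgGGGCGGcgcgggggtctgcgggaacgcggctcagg
Tspan7 (chrX:14978628-14978777, minus strand): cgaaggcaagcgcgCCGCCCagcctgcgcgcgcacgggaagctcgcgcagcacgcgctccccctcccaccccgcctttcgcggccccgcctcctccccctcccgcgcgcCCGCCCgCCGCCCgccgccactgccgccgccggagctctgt
All 4 stretches are rich in G and C, at 74.7%, 65.3%, 72.7% and 82.0%, against a median of 52.7% over all 33469 promoters of the table. GC boxes are present in Tsg101, where a pair of them overlaps, and in Tspan3 and Tspan7, where none does, and Tspan3 also holds a CCAAT box. Pdcd6ip holds an E-box and no GC box. Over the full 250 bases before the start, a GC box was found in 22 of the 39 member genes with an entry and in 30.5% of all promoters. A member gene was counted if any of its promoters held the motif, while the percentages are of single promoters, so they are not like for like. An E-box was found in 3, Cd63, Pdcd6ip and Vps37b, and in 5.59% of all promoters. Of these 3 genes, Pdcd6ip alone passed the test between the groups. A CCAAT box was found in 10 of the 39 member genes and in 34% of all promoters. A TATA box was found in 1 of the 39 and in 12.9% of all promoters. A match is a description of the letters only. Cd82, Chmp6, Chmp7, Chmp4bl1, Chmp4c, Tspan4, Tspan10, Vps28 and Vps37a had no entry.

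Members under the expression minimum were 14. The 12 tetraspanins among them ranged from no read (Cd53) to 0.771 FPKM (Tspan33), and the other 2 were Vps37c at 0.604 FPKM and Chmp4c, with 3 reads in all 6 libraries together. Tspan9 had 107 reads in EC and 148 in EN, and Tspan2 had 23 and 41, in libraries of unequal depth. Tspan1, Tspan8, Tspan10, Tspan12, Tspan18 and Tspan32 had at most 30 reads each over the 6 libraries. Tspan1 had 9 reads in EC and 21 in EN, and Tspan32 had 6 and 1. By FPKM the groups did not overlap in Tspan1, Tspan2 and Chmp4c, which lay higher in EN, and in Tspan32, which lay lower. Chmp4c had 0 reads in each EC library and 1 in each EN library. Of all tested genes, 37.9% did not overlap, and the share among genes under the minimum was not worked out. Genes under the minimum were not tested.

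Cd151 and Tspan4 need a separate reading, because the table holds a second gene model for each. Cd151, a tetraspanin bound to laminin-binding integrins (chromosome 1, 214009784 to 214013765), had 7 reads in all 6 libraries. LOC100911730, described as CD151 antigen-like (chromosome 1, 214446659 to 214450666), was at 15.5, 5.24 and 59.7 FPKM in EC and 5.08, 11.2 and 11.8 FPKM in EN. EC replicate 3 stood far above the other EC libraries. Tspan4 (chromosome 1, 214454090 to 214473741) was at 14.8, 0.751 and 1.36 FPKM in EC and 0.527, 9.83 and 0.685 FPKM in EN, and its counterpart LOC100911766, described as tetraspanin-4-like, had 7 reads in all. EC replicate 1 and EN replicate 2 were high in Tspan4, 1 library of each group, and its highest value was 28.1 times its lowest. A ratio at least as large was found in 42 of the 12056 tested genes with reads in every library.

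These models lie in neighbouring stretches of chromosome 1 in which genes of the same descriptions follow each other in the same order. The first, from 213970174 to 214074663, held 31 reads in 12 models, and the second, from 214410417 to 214511529, held 9046 reads in 11 models. Other models of the second stretch also varied between libraries of 1 group, such as LOC100911575, described as like the ribosomal protein gene Rplp2, from 8.85 to 296.7 FPKM, and LOC100911881, described as like Chid1, from 0.250 to 9.51 FPKM. How reads that match both stretches were assigned is not given in the sources used here, and its part in these values was not tested. The values of Cd151 and Tspan4 are therefore uncertain, and Tspan4 did not pass (log2 change -0.41, 95% interval -2.83 to 2.01).

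**Figure D4:**
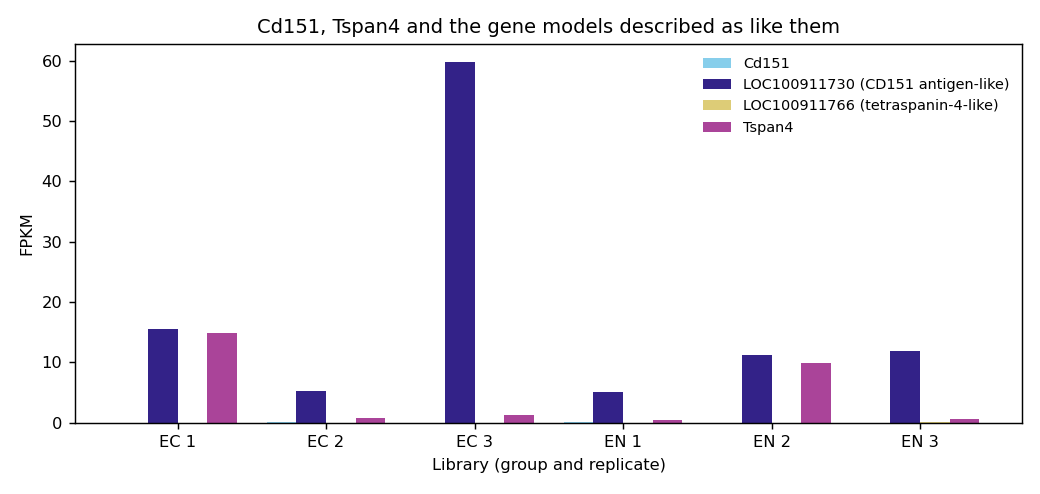
FPKM of Cd151, Tspan4 and the models described as like them in each library, as bars from 0. Cd151 and LOC100911766 are near 0 throughout, while LOC100911730 reaches 59.7 FPKM in EC replicate 3 and Tspan4 14.8 and 9.83 FPKM in EC replicate 1 and EN replicate 2.

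Genes that work with the members were read from lists chosen by function. Of 13 further ESCRT and disassembly factors, 2 fell, 11 did not pass and none rose, with a median log2 change of 0.03. The called share was 15.4%, against 14.4% of all genes tested. Usp8, a deubiquitinase that partners STAM, went from 22.1 ± 0.805 to 18.1 ± 0.163 FPKM (SD, n = 3 each), with a limma adjusted p of 0.014 for a log2 change of -0.27. Vta1, the cofactor of VPS4, went from 51.3 ± 1.91 to 43.2 ± 3.65 FPKM (adjusted p = 0.049 for -0.24 as log2). Pdcd6, the highest of the list at 68.8 FPKM and a binding partner of ALIX, did not pass (log2 change 0.06).

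Of 18 tested genes of exosome formation and release, 1 rose, 1 fell and 16 did not pass (11.1% called, against 14.4% of all genes), with a median of 0.04. Of the 4 syndecan genes, Sdc1 rose, Sdc2 fell, and Sdc3 and Sdc4 did not pass (log2 changes 0.02 and -0.17). Sdc1 was at 92.3, 91.2 and 90.4 FPKM in EC and 135.6, 132.0 and 129.3 FPKM in EN, with no overlap, a log2 change of 0.53 (SE 0.034) and an adjusted p of 7.09e-04. Sdc2 went from 48.5 ± 1.47 to 41.4 ± 1.79 FPKM (SD, n = 3 each), with a limma adjusted p of 0.026 for a log2 change of -0.22. The adaptor gene Sdcbp, which encodes syntenin, had a log2 change of -0.08 and did not pass, nor did Arf6, the highest of the list at 452.7 FPKM (log2 change 0.11, adjusted p = 0.068).

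Of 11 tested partners of tetraspanins, 2 rose, 2 fell and 7 did not pass (36.4% called, against 14.4% of all genes), with a median of -0.06. Of the laminin-binding integrin subunits on the list, Itga3 rose, Itga6 fell, Itga7 did not pass (log2 change -0.06) and Itgb4 was under the minimum. Itga3 went from 119.9 ± 3.44 to 137.0 ± 1.76 FPKM and Itga6 from 126.9 ± 4.13 to 110.7 ± 3.31 FPKM (SD, n = 3 each), with adjusted p of 0.020 and 0.026. Hbegf, a growth factor whose precursor binds CD9, fell by 0.23 as log2 (adjusted p = 0.030), and the adhesion gene Epcam rose by 0.22 (adjusted p = 0.048). Itgb1, the highest of the list at 346.7 FPKM, did not pass (log2 change -0.12). In the late endosome and lysosome list, 1 of 11 was lower and 10 did not pass (9.09% called), with a median of 0.0032. The lower one was Lamp2, from 140.9 ± 7.27 to 118.0 ± 2.92 FPKM (adjusted p = 0.020), while Lamp1, the highest of that list at 445.2 FPKM, had a log2 change of -0.08. Of the tetraspanin family members outside the symbol rule, Rom1 alone was tested and did not pass, at 5.10 FPKM.

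Of these lists' calls, Sdc1 alone kept an adjusted p under 0.05 with each library left out, at 0.0093 or less. The highest adjusted p of the others with 1 library left out was 0.063 for Usp8, 0.145 for Vta1, 0.097 for Sdc2, 0.075 for Itga3, 0.098 for Itga6, 0.11 for Hbegf, 0.155 for Epcam and 0.077 for Lamp2.

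Of the other marker lists, 1 moved with the groups. Of 10 tested Schwann cell and glial markers, 6 were lower in EN, 1 was higher and 3 did not pass, and the summed level of the list was 477.8 to 486.6 FPKM in EC and 420.4 to 452.9 FPKM in EN, with no marker at 0. Ngfr, a neurotrophin receptor gene, rose by 0.19 as log2. The part of this shift in the changes of Tspan3, Tspan7, Cd82 and the other genes above was not tested. Endothelial markers, those of the cells that made the exosomes, summed to 3.19 to 4.10 FPKM in EC and 3.22 to 3.75 in EN. Tie1 and Tek, at 1.73 and 1.24 FPKM, were the 2 that reached the minimum. Cldn5 was at 0 and Kdr at 0.0013 FPKM, and Pecam1 was not found by its symbol. The fibroblast markers summed to 73.7 to 77.1 FPKM in EC and 71.9 to 75.2 in EN, most of it Pdgfra, with Lum at 0. None of the 2 endothelial, 1 leukocyte and 3 fibroblast markers tested passed limma's test.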

How the data were processed

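Total RNA of the 6 libraries was sequenced, per the labels' protocols, after library preparation with an Illumina TruSeq RNA kit. The authors deposited 1 table of FPKM for 33350 gene models with their lengths and positions, and HISAT2 2.0.5 and the Rnor_6.0 build are named in the submitters' processing notes. Counting tool, annotation release and strand setting: not given in the sources used here. Read counts were worked back from FPKM and gene length, and 100% of values came out whole (within 0.001).

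EN was compared with EC by limma 3.58.1 (R 4.3.3), as a two-sided test on group alone, with the variance trended on level. The input was log2(FPKM + 1) of genes averaging 1 FPKM or more across the libraries. P-values were adjusted over all 12198 genes tested. This scale understates changes of low genes, and folds are ratios of mean FPKM. Alternatives were 2 other pseudocounts (0.1 and 0.5), no filter or at least 5 FPKM, other scalings, a replicate block, no variance trend, protein-coding models only, limma voom on the reads, and each library left out.

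Values in every library are given for genes past the test, the 2 highest of each role, Cd9, Cd63, Cd81, Tsg101 and Pdcd6ip, and those beside the threshold. From each functional list, the genes past the test (up to 4) and the highest are given. Values of other members and of Cd151, Tspan4 and the models like them were named after being seen. The members and lists were chosen with earlier results of these data known. Promoter windows came from RefSeq (GRCr8) by symbol, for 39 of 48 genes.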

Additional observations from a re-analysis of the deposited data

How the results depend on the processing

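Cd82 was called higher in all 17 alternatives. Without a filter, 1 gene of the set was higher and 1 lower (0 tetraspanins lower; 0 ESCRT genes higher and 1 lower), against 399 higher and 467 lower of all genes, and the tetraspanin median was -0.033. Without the variance trend, 1 was higher and 0 lower (0 tetraspanins lower; 0 ESCRT genes higher and 0 lower), against 510 and 509 of all genes. At least 5 FPKM, the TPM scale, protein-coding models alone or voom added Chmp7, which made 2 ESCRT genes higher. The ESCRT median was -0.0040 at 5 FPKM or more, and 1 tetraspanin was lower on the TPM scale. With voom, 4 genes of the set were higher, 2 of them tetraspanins, against 1387 of all genes. On the TPM scale 957 of all genes were higher and 766 lower, and with voom 1387 and 960, against 883 and 871. Of the 17 genes chosen for values in every library, the sign changed for Cd63 with quantile normalization (-0.057) and for Vps4a with a library left out (-0.10 to 0.023).

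With 1 library left out, 1 to 3 genes of the set were higher and 0 to 3 lower (tetraspanins 1 to 2 and 0 to 2; ESCRT genes 0 to 2 and 0 to 2), against 143 to 1030 higher and 180 to 1029 lower of all genes. The median was -0.12 to -0.066 for tetraspanins and -0.0100 to 0.042 for ESCRT genes. With the replicate number as a block, 2 were higher and 5 lower, Cd9 being added (adjusted p = 0.046), against 994 and 913 of all genes. Deviations of same-numbered libraries from their group means correlated at 0.088, -0.095 and -0.020, and not every library correlated best with its own number. With 3 libraries in a group these deviations sum to 0, so the correlations cannot decide whether same-numbered libraries share a batch. The 14 genes under the minimum were not tested; they had at most 255 reads each over the 6 libraries.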

Other observations

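Several members lie beside each other in the genome and were at very different levels (coordinates on Rnor_6.0). Cd82, at 180.4 FPKM, lies 87689 bases from Tspan18, at 0.058 FPKM, on chromosome 3. Cd81, at 119.8 FPKM, lies 31496 bases from Tspan32, at 0.074 FPKM, on chromosome 1. Hgs, at 63.0 FPKM, lies 19959 bases from Tspan10, at 0.028 FPKM, on chromosome 10. Tspan9 and Tspan11, 7815 bases apart on chromosome 4, were both low, at 0.582 and 0.293 FPKM. These were the pairs of members within 200 kb of each other. The levels are means over all 6 libraries and involve no comparison between the groups.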
